A study of Mus musculus with 8 samples.

Results

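WFS1 peaks away from gene starts that hold the recognition sequence of the transcription factor AP-1 were described from the peak lists of WFS1 ChIP-seq in C2C12 cells. The peaks were chosen by their position and sequence. Overlapping peaks of the lists were merged, autosomal peaks were kept whose centre lay 1 to 100 kb from the nearest 5′ end of a protein-coding gene, and of these the peaks whose central 200 bp held the 7-base sequence TGACTCA, which reads as TGAGTCA on the other strand. This gave 2752 AP-1 peaks among 22292 merged peaks, 22020 of them on autosomes and 14472 of them distal. The other 11720 distal peaks, which lack the exact sequence in their central 200 bp, serve as the comparison.

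C2C12 is a mouse myoblast line that fuses into myotubes when serum is withdrawn. Proliferating wildtype cells were crosslinked with DSG, which joins proteins to each other, and then with formaldehyde, and chromatin was precipitated with an antibody against WFS1. The 30-cycle library was made from chromatin sonicated for 30 cycles, and the 36-cycle library from a part of the same precipitate that went through 6 further cycles. The experiment has 8 libraries, and the other 6, the inputs and the libraries of WFS1 knockout cells with stable expression of Flag-tagged WFS1, were not used here. Each condition has 1 library and both lists share 1 precipitation, so neither is a replicate of the other, no difference could be tested, and the lists give no height or depth. The 95% intervals below cover counting error over peaks or sites only, and neighbouring peaks and sites are not independent. Markers of myoblasts could be checked only through peaks. Cdh15 was the nearest gene of 5 distal peaks, 2 of them AP-1 peaks, which lay within introns of another gene, Ankrd11. Myod1 was the nearest gene of 2 distal peaks, and Des and Itga7 of 1 each, none of them an AP-1 peak. No merged peak was nearest to Pax7.

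AP-1 is a dimer of basic leucine zipper proteins, mostly of the Fos and Jun families, that is switched on by growth factors, serum and stress through MAP kinases. It binds the near-palindrome TGACTCA and in many cell types sits at enhancers far from gene starts, together with factors specific to the cell type. In myoblasts, AP-1 is associated with proliferation, while MyoD, which binds the E-box CAGCTG, drives differentiation. WFS1, or wolframin, is a membrane protein of the endoplasmic reticulum that is mutated in Wolfram syndrome and was studied here as a protein of the inner nuclear membrane. It is not known as a sequence-specific DNA-binding protein, and the ChIP did not measure AP-1 itself, so a sequence match shows where the letters are and not that AP-1 was bound.

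AP-1 peaks of 3 kinds are shown as sequence, on the forward strand of GRCm38 with AP-1 sites in capitals. First come AP-1 peaks with dense sites, since the number of sites is compared below. A peak with 5 sites in its central 200 bp lay between genes 10.7 kb upstream of Twsg1, which encodes an extracellular BMP regulator, with no masked base. The peak in an intron of Psd3 held 3 sites.
Twsg1, chr17:65961793-65961992: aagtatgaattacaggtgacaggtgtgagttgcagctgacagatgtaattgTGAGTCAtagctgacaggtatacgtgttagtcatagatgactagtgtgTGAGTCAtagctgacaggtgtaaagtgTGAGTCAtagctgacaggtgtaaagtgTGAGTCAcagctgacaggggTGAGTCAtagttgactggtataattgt
Psd3, chr8:68157255-68157454: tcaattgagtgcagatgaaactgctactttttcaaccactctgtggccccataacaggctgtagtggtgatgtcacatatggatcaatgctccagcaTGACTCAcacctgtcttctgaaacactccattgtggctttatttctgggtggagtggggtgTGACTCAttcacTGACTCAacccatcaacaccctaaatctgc
The Twsg1 sequence repeats a short unit with TGAGTCA in it, while the sites of the Psd3 peak stand in different surroundings.

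The second kind are AP-1 peaks that share a nearest gene. A run of 5 stood within 9761 bp of an intron of Lpar1, the gene of a lysophosphatidic acid receptor, 82.5 to 92 kb from its 5′ end. The first site of each is shown with 27 bases to either side.
Lpar1, chr4:58461925-58461985: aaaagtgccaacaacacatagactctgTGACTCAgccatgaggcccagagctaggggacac
Lpar1, chr4:58462702-58462762: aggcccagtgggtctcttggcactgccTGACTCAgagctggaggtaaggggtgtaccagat
Lpar1, chr4:58464594-58464654: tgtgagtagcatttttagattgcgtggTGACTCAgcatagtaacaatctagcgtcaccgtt
Lpar1, chr4:58470375-58470435: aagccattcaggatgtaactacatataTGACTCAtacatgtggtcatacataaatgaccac
Lpar1, chr4:58471329-58471389: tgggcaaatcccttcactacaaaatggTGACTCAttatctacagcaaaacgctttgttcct
These are 5 separate sites in unlike surroundings, and 2 of the 5 peaks were called in both lists, beside 37.5% of all distal peaks. All 4 AP-1 peaks nearest to Has2, which encodes hyaluronan synthase 2, were called in both lists, and 3 of them are shown.
Has2, chr15:56634362-56634422: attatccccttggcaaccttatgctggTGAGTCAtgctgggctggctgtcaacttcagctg
Has2, chr15:56679221-56679281: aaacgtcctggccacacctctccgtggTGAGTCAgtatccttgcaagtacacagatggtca
Has2, chr15:56721308-56721368: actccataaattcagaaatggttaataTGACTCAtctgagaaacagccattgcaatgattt

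The third kind are AP-1 peaks nearest to muscle genes and to Plxna2 and Cd44. Myf6 is a myogenic regulator, Myh3 encodes embryonic myosin heavy chain, Plxna2 is a semaphorin co-receptor, and Cd44, a hyaluronan receptor, is the nearest gene of the widest AP-1 peak.
Myf6, chr10:107501883-107501943: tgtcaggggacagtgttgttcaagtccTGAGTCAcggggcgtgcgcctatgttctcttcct
Myf6, chr10:107502400-107502460: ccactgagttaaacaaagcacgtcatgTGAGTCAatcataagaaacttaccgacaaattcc
Myf6, chr10:107583557-107583617: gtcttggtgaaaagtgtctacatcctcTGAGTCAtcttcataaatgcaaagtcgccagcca
Myh3, chr11:67076980-67077040: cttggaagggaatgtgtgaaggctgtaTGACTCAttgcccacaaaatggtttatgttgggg
Plxna2, chr1:194671972-194672032: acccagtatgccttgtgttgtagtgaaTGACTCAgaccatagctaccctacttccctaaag
Cd44, chr2:102957945-102958005: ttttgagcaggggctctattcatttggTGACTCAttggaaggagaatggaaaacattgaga
All 3 Myf6 peaks were called after 30 cycles only, as were 43.6% of AP-1 peaks and 43.9% of all distal peaks. The Myh3 and Plxna2 peaks and the Cd44 peak shown were called in both lists, while the other AP-1 peaks nearest to Cd44 were each in a single list, 1 in the 30-cycle list and 1 in the 36-cycle list.

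The AP-1 sequence was found in 19.0% of distal peaks (18.4 to 19.7), against 3.29% of all 6604246 windows of 200 bp in the distal autosomal space, a ratio of 5.78 (5.58 to 5.98). In regions 2 kb to either side of the same peaks the share was 3.86%, a ratio of 4.93 (4.61 to 5.27). Mean GC content was 47.9% in the peaks, 43.3% in the windows and 45.6% in the flanking regions. The share with AP-1 differed by list, at 20.7% (19.6 to 21.8) for peaks present in both, 18.9% (17.9 to 19.8) for peaks that only the 30-cycle library gave and 16.0% (14.6 to 17.4) for peaks that only the 36-cycle library gave. These shares describe the choice of the peaks. Without sites in repeat-masked bases, 2408 peaks (16.6%) would remain.

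Around all distal peaks, AP-1 sites numbered 1.11 per kb within 50 bp of the centre, 0.523 per kb at 200 to 250 bp and 0.239 per kb at 950 to 1000 bp. In the AP-1 peaks, the nearest site lay a median of 45 bp from the centre (quartiles 22 and 69), and 56.8% (54.9 to 58.6) had it within 50 bp. The choice of a window of 200 bp fixes most of this, since 1 site placed evenly in that window would have a median distance of 48.5 bp and lie within 50 bp at 52.1% of its positions. The share was 59.8% in AP-1 peaks up to 400 bp wide and 53.9% in wider ones. A further 2081 distal peaks (14.4%) held the sequence only outside their central 200 bp.

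**Figure D1:**
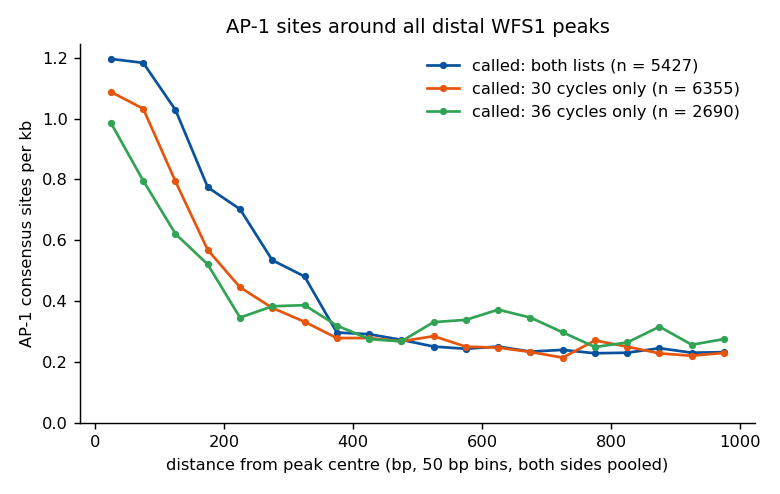
AP-1 sites per kb (y axis) against distance from the peak centre in bp, in bins of 50 bp with both sides pooled, for distal peaks called in both lists (n = 5427), after 30 cycles only (n = 6355) and after 36 cycles only (n = 2690). In each set the density is highest in the bins next to the centre. In the set called after 36 cycles only it is uneven farther out, with 0.275 sites per kb at 400 to 450 bp, 0.372 at 600 to 650 bp and 0.249 at 750 to 800 bp. The central 200 bp of the plot are what the AP-1 peaks were chosen by.

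Most AP-1 peaks had 1 site. In the central 200 bp, 2473 peaks held 1 site, 260 held 2 and 19 held 3 or more, so that 279 (10.1%, 9.07 to 11.3) held 2 or more. The gap between neighbouring sites had a median of 49.5 bp over 304 pairs, with 51 pairs (16.8%) within 20 bp. Among the peaks with the most sites were the peak near Twsg1, 921 bp wide, and those with 3 sites in Psd3 (1293 bp), upstream of Ptk2, which encodes focal adhesion kinase (907 bp), and in an intron of Arhgap44 nearest to 1700086D15Rik (784 bp). These were called in both lists, and all are in the widest of the 5 width classes below, where 87.7% of AP-1 peaks were. Peaks with equal numbers of sites were ranked by width, so those named with 3 sites are the widest of 17. Both lists held 46.6% of AP-1 peaks with 2 or more sites, but 7 of the 19 with 3 or more (36.8%, 19.1 to 59.0).

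Both lists held 1123 of the 2752 AP-1 peaks (40.8%), beside 37.5% of all distal peaks. In the other distal peaks the share was 36.7%, a difference of 4.08 percentage points (2.06 to 6.12). The difference came with fewer peaks called after 36 cycles only, 15.6% against 19.3% (difference -3.66, -5.15 to -2.09), while the shares called after 30 cycles only were 43.6% and 44.0%. The AP-1 peaks did not differ in this from the 2219 distal peaks with CAGCTG and no AP-1 site by more than counting error (difference -0.43 points, -3.18 to 2.32), nor from the 3442 with a RUNX sequence, TGTGGT or its variant TGCGGT, and no AP-1 site (0.016 points, -2.44 to 2.48). Against the 6786 distal peaks with none of the 3 sequences, the difference was 6.71 points (4.56 to 8.87).

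Peak width moved with this result. Width is that of the merged peak, so being called in both lists can itself widen a peak. The width classes are therefore not independent of calling in both lists. In the narrowest of 5 width classes 1.11% of AP-1 peaks and 0.812% of the others were in both lists, and in the widest class 87.7% and 87.2%. Within each class the difference was between 0.296 and 3.75 points, and every interval spanned 0. Standardised to the widths of the AP-1 peaks, the difference was 2.17 points (0.571 to 3.76). When peaks with the sequence anywhere in the peak were counted, it was 20.3 points (18.6 to 22.0), and wider peaks have more bases to hold a site.

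**Figure D2:**
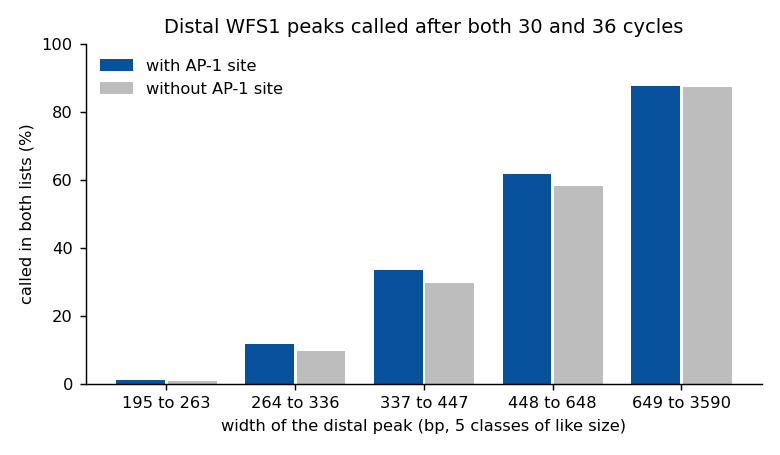
Share of distal peaks called in both lists (%, y axis) in 5 classes of peak width in bp (x axis), for peaks with (blue) and without (grey) an AP-1 site in the central 200 bp. The share runs from about 1% in the narrowest class to 87.7% and 87.2% in the widest, with the bars of each pair close together.

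AP-1 peaks had a median width of 403 bp (quartiles 297 and 584, range 195 to 3590) against 381 bp for the other distal peaks, a difference of 22 bp (10.8 to 34.1). The direction depended on the set. In the 36-cycle list alone the medians were 328 and 334 bp, and among peaks in both lists they were 593 and 634 bp, so that there the difference was -41 bp (-59.9 to -17.7). The share of distal peaks with AP-1 was 15.5% in the narrowest class, 21.6% in the class of 448 to 648 bp and 18.3% in the widest. The 5 widest AP-1 peaks measured 3590 bp upstream of Cd44, 2662 bp in an intron of Mgat4b, 2446 bp near Tubb2b, 2376 bp upstream of Dnah5 and 2327 bp in an intron of Matn2, and all were in both lists.

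Within the AP-1 peaks, those with further sequences were called in both lists more often. The share was 46.6% with 2 or more sites against 40.2% with 1 (difference 6.44 points, 0.35 to 12.6), 44.5% with CAGCTG against 39.8% without (4.68, 0.20 to 9.20), and 44.7% with a RUNX site against 39.1% (5.59, 1.61 to 9.59). The corresponding differences in the other distal peaks were 5.56 points for CAGCTG (3.31 to 7.84) and 5.76 points for RUNX (3.83 to 7.70) in the same direction and with overlapping intervals. With CAGCTG and RUNX together the share was 50.3%, and with neither 38.2%. Median widths were 441 bp with 2 or more sites, 399 bp with 1, 406 bp with CAGCTG, 411 bp with RUNX and 442 bp with both of these, and the part of width in these differences was not tested.

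The share of peaks with an AP-1 site was lowest at gene starts. It was 4.38% (3.68 to 5.20) within 1 kb of a 5′ end, 12.6% (11.2 to 14.0) at 1 to 5 kb, 19.9% at 5 to 10 kb, 18.9% at 10 to 25 kb, 20.6% at 25 to 50 kb, 21.3% at 50 to 100 kb and 22.8% (21.6 to 24.0) beyond 100 kb. Mean GC content of the peaks ran from 58.2% in the nearest class to 44.4% in the farthest, and its part in the trend was not tested. Among the distal peaks, 53.4% of AP-1 peaks lay over 25 kb from the nearest 5′ end against 47.3% of the others (difference 6.10 points, 4.03 to 8.17). Just inside the lower limit was a peak of 778 bp at 1011 bp from Spag9, and just outside it a peak of 652 bp at 995 bp from Lrrc10b. At the upper limit, a peak at 99995 bp from Zfp217 was kept and a peak at 100089 bp from Pigk was not.

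**Figure D3:**
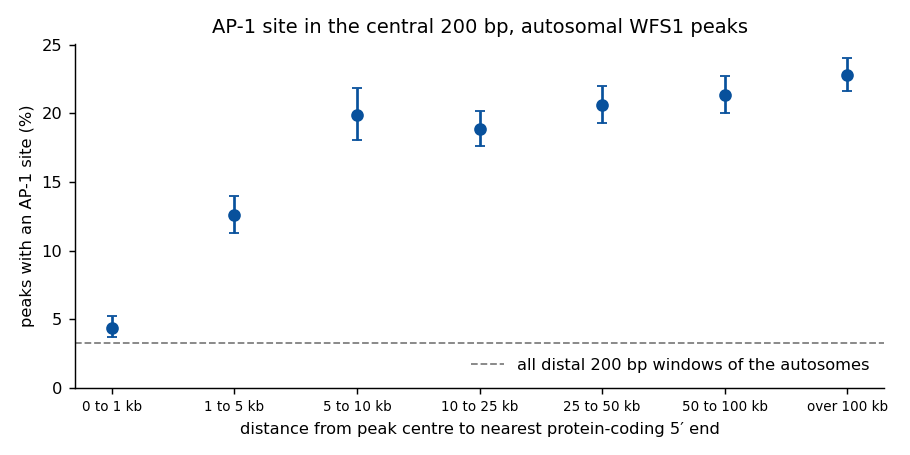
Share of autosomal WFS1 peaks with an AP-1 site in the central 200 bp (%, y axis) by distance from the peak centre to the nearest protein-coding 5′ end (x axis), with 95% Wilson intervals. The dashed line is the share of all distal windows of 200 bp, 3.29%, and the class within 1 kb stands just above it at 4.38% while all other classes are at 12.6% or more.

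By position, 1342 AP-1 peaks (48.8%) lay between protein-coding genes, 1312 (47.7%) in introns and 98 (3.56%) in exons. Exons held 5.94% of the other distal peaks (difference -2.38 points, -3.15 to -1.51), while the intervals for introns and for the space between genes spanned 0. AP-1 peaks lay upstream of the nearest gene in 45.0% of cases, against 44.2%. Their central 200 bp were free of repeat-masked bases more often, in 43.1% against 35.0% (difference 8.10 points, 6.06 to 10.1), and were over 50% masked in 7.74% against 15.0%. This is not particular to AP-1 peaks, since distal peaks with CAGCTG and no AP-1 site were at 43.4% and 8.92%. Those with a RUNX sequence and no AP-1 site were at 37.5% and 13.1%. Median GC content was 48% and 47.5%.

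The bases next to the sequence, which the choice of peaks did not use, went with whether a site lay in a peak. Of 229552 AP-1 sites in the distal autosomal space, 3052 (1.33%, 1.28 to 1.38) lay in the central 200 bp of an AP-1 peak. With the site read as TGACTCA, the share was 1.84% after G, 1.52% after A, 1.19% after C and 0.563% after T. On the other side it was 1.77% before T, 1.68% before C, 1.27% before G and 0.649% before A. Of the 16 pairs of flanking bases, GTGACTCAT had the highest share, with 307 of 12010 sites (2.56%, 2.29 to 2.85), and TTGACTCAA the lowest, with 28 of 10202 (0.274%, 0.190 to 0.396), a ratio of 9.31 (6.33 to 13.7). ATGACTCAT, which has the same flanking bases as TTGACTCAA in the other order and thus the same base composition, had 256 of 12131 sites in peaks (2.11%), a ratio of 7.69 (5.21 to 11.3).

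The same held for G and C in a weaker form, with 2.01% for GTGACTCAC against 1.14% for CTGACTCAG, a ratio of 1.76 (1.50 to 2.06). For the pair with A and T, the ratio was 8.06 among sites outside repeat-masked bases, 6.70 in the 30-cycle list alone and 4.91 (3.18 to 7.56) in the 36-cycle list alone. Among the 2473 AP-1 peaks with 1 site, the flanks did not go with calling in both lists beyond counting error. The share was 39.0% (35.9 to 42.2) for the 4 pairs with the highest shares of sites in peaks and 40.4% (33.6 to 47.7) for the 4 with the lowest.

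Sites also differed by their surroundings. The share of sites in peaks was higher at higher GC content of the surrounding bases (100 bp to either side), from 0.266% (0.206 to 0.344) under 35% GC to 1.52% at 45 to 50% and 4.34% (3.47 to 5.42) from 60% up. It was 1.50% for sites outside repeat-masked bases and 0.756% for sites within them. By distance to the nearest 5′ end it stayed between 1.16% at 1 to 5 kb and 1.40% at 25 to 50 kb. With another AP-1 site within 100 bp, 615 of 11083 sites (5.55%) were in peaks, against 1.12% of the rest, a ratio of 4.97 (4.56 to 5.42), and 4.56 when standardised to GC content in classes of 5%. Paired sites share peaks, so this interval is too narrow.

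With the MyoD-type E-box CAGCTG within 100 bp, 626 of 20862 sites (3.0%) were in peaks, against 1.16% without, a ratio of 2.58 (2.37 to 2.82) that was 2.03 after standardising to GC. For the RUNX sequence TGTGGT the share was 2.45% against 1.12% (ratio 2.19, standardised 2.09), for the TEAD sequence CATTCC 1.97% against 1.25% (1.57, standardised 1.49) and for the MEIS sequence TGACAG 1.59% against 1.29% (1.24, standardised 1.14). MyoD, RUNX, TEAD and MEIS factors act in myoblasts, TEAD as the DNA-binding partner of the Hippo pathway co-activators YAP and TAZ. For the SP/KLF sequence GGGCGG, typical of promoters, the ratio of 1.94 was 1.18 after standardising.

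AP-1 peaks and other distal peaks held most of these sequences at similar shares. CAGCTG was in 19.7% (18.3 to 21.3) of AP-1 peaks and 18.9% of the others, a ratio of 1.04 (0.958 to 1.13), where 8.24% of distal windows held it. TGTGGT was in 27.6% and 26.1% (ratio 1.06, 0.986 to 1.13; windows 14.8%), with a ratio of 1.11 (1.02 to 1.19) without matches in repeat-masked bases and 1.10 (1.01 to 1.20) in the 36-cycle list alone, and CATTCC in 15.1% and 15.9% (0.949, 0.861 to 1.05; windows 10.6%). TGACAG was somewhat more frequent with AP-1, at 16.5% against 14.4% (1.14, 1.04 to 1.26; windows 13.0%), as was the STAT sequence TTCCNGGAA, at 1.16% against 0.776% (1.50, 1.00 to 2.24). The TGACAG ratio was 1.11 (0.996 to 1.23) in the 30-cycle list alone. Both strands were searched, and AP-1 sites were masked in the AP-1 peaks, which also removes matches that overlap the site. Without masking, an alternative chosen after seeing the data, CAGCTG was in 589 AP-1 peaks instead of 543 (21.4%), and the ratio was 1.13 (1.04 to 1.23), with an interval that no longer includes 1. TGTGGT then had 1.07 (1.01 to 1.15). The counts of AP-1 peaks with CAGCTG or RUNX that were set against calling in both lists are without masking.

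Other sequences were less frequent with AP-1. The E-box CAGGTG, which is also bound by repressors such as ZEB and Snail, was in 9.41% of AP-1 peaks, 11.8% of the others and 13.2% of windows (ratio of the first pair 0.799, 0.705 to 0.907). GGGCGG was in 4.51% against 6.41% (0.703, 0.584 to 0.846), and 0.857 after standardising to GC. The ETS sequence CCGGAA was in 2.73% against 3.60% (0.757, 0.594 to 0.964), with a ratio of 0.989 in the 36-cycle list alone. The CTCF core AGGGGGC was in 1.74% against 2.49% (0.700, 0.517 to 0.947) and the NF-kB motif in 2.03% against 2.70% (0.752, 0.568 to 0.996). In all, 20 motifs were searched, and the intervals for STAT and NF-kB come close to 1. Among all ranked hexamers, the highest ratios of AP-1 peaks to other distal peaks were small: 1.48 for ACGGTA, 1.43 for ACGGAT, 1.38 for AATCGT, 1.38 for GTACGA and 1.35 for CGTACC, each in 2.25% of the AP-1 peaks or fewer, the last 3 with intervals that include 1. The lowest ratios were farther from 1, with 0.122 (0.0299 to 0.496) for CGCGAA and 0.205 (0.101 to 0.417) for CGAGCG. These hexamers were in 0.0727% and 0.291% of AP-1 peaks against 0.597% and 1.42% of the others.

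**Figure D4:**
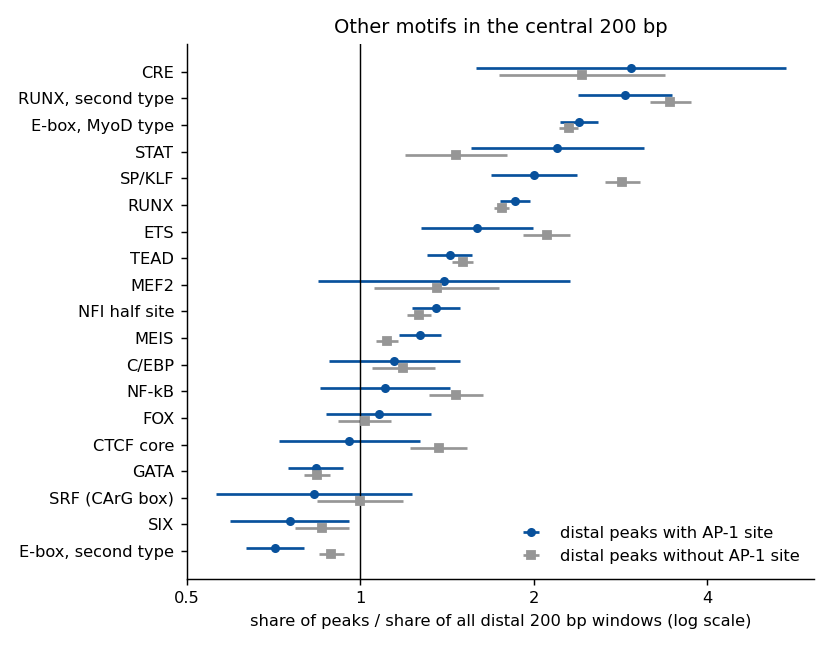
Share of peaks with each motif in the central 200 bp divided by the share of all distal windows of 200 bp (x axis, log scale), for distal peaks with (blue circles) and without (grey squares) an AP-1 site, with 95% intervals. For the MyoD-type E-box the symbols are close together at 2.40 and 2.30, and for SP/KLF apart at 2.00 and 2.85.

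AP-1 peaks were spread over the genome. The nearest other AP-1 peak lay a median of 95.3 kb away, and 403 (14.6%) had one within 10 kb. The nearest distal peak of any kind was a median of 9.73 kb away, against 6.99 kb for the other distal peaks. Where a distal peak lay within 10 kb, it was an AP-1 peak in 18.1% (16.1 to 20.2) of cases for AP-1 peaks and in 16.3% (15.4 to 17.2) for the others, so the kinds of peak were mixed. Joining AP-1 peaks within 10 kb gave 171 pairs, 16 runs of 3, 2 runs of 4, near Crybb1 and in Arhgap28, and the run of 5 in Lpar1 shown above.

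Of 20807 autosomal protein-coding genes, 2148 (10.3%) were the nearest gene of at least 1 AP-1 peak, and 6123 (29.4%) of at least 1 distal peak. The nearest gene is a label of position and not a target. Col5a1, which encodes a chain of fibrillar type V collagen, had 6 AP-1 peaks among 14 distal peaks, 5 of them upstream at 11.7 to 83.7 kb, and 4 of the 6 were in both lists. Ptgs1, which encodes cyclooxygenase 1, had 6 among 7. Arhgap28, a GTPase-activating protein, had 5 among 9, with 7 sites, and 4 of the 5 were in both lists. Nedd9, a focal adhesion scaffold, had 5 among 11, Lpar1 5 among 8, and Rbpj, the DNA-binding protein of Notch signaling, 5 among 11. Meis1, a homeobox factor, and Capn2, the calpain 2 protease, had 4 among 10 each, Arsj, an arylsulfatase, 4 among 5 and Has2 4 among 7. For the rest of these genes, both lists held 3 of 6 AP-1 peaks for Ptgs1 and 2 of 5 each for Nedd9, Lpar1 and Rbpj. They held 1 of 4 each for Meis1 and Capn2, 2 of 4 for Arsj and 4 of 4 for Has2. Over all AP-1 peaks the share in both lists was 40.8%.

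Shares by list of the nearest gene were read against 19.0% of all distal peaks. For 52 matrix and matricellular genes, 49 of 186 distal peaks had an AP-1 site (26.3%, 20.5 to 33.1), in 29 of the 52 genes, and 28 of the 49 (57.1%) were in both lists, beside 40.8% of all AP-1 peaks. Distal peaks of this list without an AP-1 site were not compared in this, so the 57.1% is not read as particular to AP-1 peaks. Col5a1, Has2 and Col1a1, with 3 among 4, led this list. Among peaks in both lists the share was 29.5%, beside 20.7% of all such peaks. By every gene within 50 kb it was 24.4%, beside 18.3% of all distal peaks at 1 to 50 kb. Integrin and focal adhesion genes had 36 of 160 (22.5%, 16.7 to 29.6), led by Nedd9, Cd44 with 3 among 11 and Parva, which encodes a parvin that links integrins to actin, with 3 among 5. By every gene within 50 kb this list was at 17.7% (12.4 to 24.7), and among peaks in both lists at 23.4% (14.7 to 35.1). Growth factor receptors had 19 of 79 (24.1%, 16.0 to 34.5), among them Axl with 3 among 5, Lifr, the LIF receptor, with 3 among 7, and Igf2r with 2 among 8.

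Genes of the actin cytoskeleton and its regulators stood lower, with 21 of 163 (12.9%, 8.58 to 18.9), among them Cnn3, a calponin, with 3 among 7 and Mrtfa, a co-activator of SRF, with 2 among 5. G1 cell cycle genes had 3 of 45 (6.67%, 2.29 to 17.9): 1 each for Cdk6, E2f3 and Myc, and Myc had 12 distal peaks. For these lists and for the matrix list, the interval did not reach 19.0%. By every gene within 50 kb the matrix interval (18.7 to 31.3) did include 19.0%. Such peaks lie 1 to 50 kb from a 5′ end, and the 18.3% of all distal peaks in that range was just outside it. Among peaks in both lists the actin genes, at 12.9% (6.69 to 23.4), and the G1 genes, at 8.70% (2.42 to 26.8), had intervals that include 20.7%. Counts are small, 13 lists were read, and peaks of 1 gene are not independent.

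**Figure D5:**
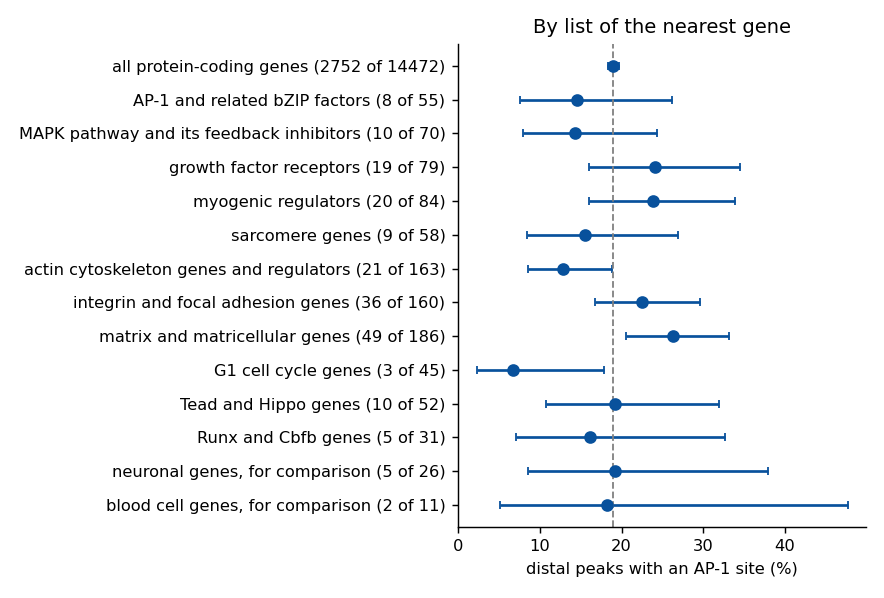
Share of distal peaks with an AP-1 site (%, x axis) by the list that the nearest gene belongs to, with the number of AP-1 peaks among distal peaks in brackets and 95% Wilson intervals. The dashed line marks 19.0%, the share of all distal peaks, and lies outside the intervals of the matrix, actin and G1 lists only.

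Muscle genes were near the share of all distal peaks. Myogenic regulators had 20 of 84 (23.8%, 16.0 to 33.9), and 14.6% when every gene within 50 kb of a peak was counted. Myf6 had 3 AP-1 peaks among 5 distal peaks, at 7.23, 7.66 and 88.9 kb upstream, the last in an intron of Ptprq. Twist2, a repressor of myogenic factors, had 3 among 6, and Cdh15, the M-cadherin of muscle precursors, 2 among 5. Both Cdh15 peaks lay in introns of Ankrd11, 57.5 and 86.2 kb downstream of the 5′ end of Cdh15. They were called after 36 cycles only, as were 15.6% of AP-1 peaks and 18.6% of all distal peaks. Myod1 had none among 2, and Plxna2 1 among 5, a peak of both lists with 2 sites. Sarcomere genes had 9 of 58 (15.5%, 8.38 to 26.9), with Pdlim5 (2 among 6), Tpm1 (2 among 7) and Myh3 (1 of 1, at 1.30 kb upstream and in both lists).

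Genes of AP-1 itself and related factors were not above the rest. The list of Fos, Jun, Maf, Bach and related genes had 8 of 55 (14.5%, 7.56 to 26.2), with Maf (2 among 6), Bach1 (1 among 4) and Bach2 (1 among 6). MAP kinase genes and their feedback inhibitors had 10 of 70 (14.3%, 7.95 to 24.3), with Dusp1 (2 among 10) and Dusp6 (2 among 8), phosphatases that switch off MAP kinases. Both Dusp1 peaks lay in introns of Ergic1, 43.7 and 49.2 kb upstream of Dusp1. Tead and Hippo genes had 10 of 52 (19.2%), with Vgll2 (3 among 8), Amotl1 (2 among 3) and Wwtr1, which encodes TAZ (2 among 5), and 8.70% among peaks in both lists. Runx and Cbfb genes had 5 of 31 (16.1%), with Runx1 (2 among 7), Runx3 (2 among 11) and Tle4 (1 of 1). In the comparison lists, neuronal genes had 5 of 26 (19.2%), with Shank2, Scn1a and Gad2, and blood cell genes 2 of 11 (18.2%), with Itgax and Blk. Of the neuronal genes 7.02% had an AP-1 peak and 28.1% any distal peak, of the blood cell genes 5% and 25%, and of the matrix genes 55.8% and 75%.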

How the data were processed

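Peaks of WFS1 ChIP-seq in proliferating wildtype C2C12 cells were analyzed from the lists of the 30-cycle and 36-cycle libraries, 1 library per condition. Per the study's methods, the authors aligned reads to GRCm38 using NextGenMap, dropped poorly mapped reads and ran MACS2 peak calling on every library by itself. The control of peak calling is not given in the sources used here. The deposited lists hold positions only (chromosome and both ends of a peak), without scores or read counts, so depth is unknown.

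Lists were merged by overlap of at least 1 bp, which gave the same 22292 peaks as bedtools 2.31.1. The peak centre set the distance to the 5′ ends of protein-coding genes in the GENCODE mouse annotation, release 21 (the study used a later one), and the central 200 bp of the RefSeq GRCm38 assembly were searched on both strands. Repeat-masked bases are those in lower case in that assembly. All windows of 200 bp at 1 to 100 kb from a 5′ end gave the background. Shares have Wilson intervals, differences Newcombe intervals and ratios intervals on the log scale, all 95%. Intervals of median differences come from binomial ranks. No test was possible with 1 library per condition.

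Named are the 10 genes nearest to the most AP-1 peaks, up to 3 genes per gene list, Myod1, Myf5, Myf6, Pax7 and Plxna2, the 5 widest peaks, the 5 with the most sites, the peaks at each limit, and the 5 hexamers with the highest ratio. Some items that this rule names are not reported here. Des, Itga7 and Cdh15 were read as markers. Crybb1, Matn2, Arhgap44, Ptprq, Ankrd11 and Ergic1, as well as the compared flank pairs and the hexamers with the lowest ratios, were named after their values were seen. The AP-1 peaks, motifs and gene lists were chosen with earlier results of these data known. Merging, site search and intervals were tested on simulated data. Scripts ran in python 3.11.15 with scipy 1.17.1, numpy 2.4.6, matplotlib 3.10.9 and pandas 2.3.3.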

Additional observations from a re-analysis of the deposited data

How the results depend on the processing

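No paired analysis was possible because the groups hold a lone library each and nothing was tested. The number of AP-1 peaks, 2752, was 1598 in the 36-cycle list alone, 1443 with a central window of 100 bp, 4422 with 400 bp and 4833 with the whole peak, and stayed within 1.5 times under the other 7 alternatives. Their share of distal peaks was 9.97%, 30.6% and 33.4% with those windows, 19.9% in the 30-cycle list, 18.3% at 1 to 50 kb, 20.2% at 5 to 100 kb, 20.1% with every transcript start, 19.9% with all annotated genes, and 16.6% without masked sites.

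The difference in calling in both lists was 20.3 points with the whole peak, and 2.68 points with at least 50% of both peaks shared. The width difference was 8 bp in the 30-cycle list (-0.944 to 19.7) and -6 bp in the 36-cycle list (-15.4 to 6.08), with intervals that include 0. Among peaks in both lists it was -41 bp. The share with a site within 50 bp of the centre was 58.7% in the 36-cycle list and 59.8% in peaks up to 400 bp wide. Against regions 2 kb to either side instead of the other distal peaks, the ratios were 2.07 for the MyoD-type E-box, 1.67 for RUNX and 1.41 for TEAD. They were 1.33 (0.995 to 1.77) for ETS, with an interval that includes 1, and 1.35 (1.08 to 1.68) for SP/KLF. Against the other distal peaks these were 0.757 and 0.703. The regions to either side compare peaks with their surroundings, so they do not reverse the difference from the other distal peaks. Without masking AP-1 sites, chosen after seeing the data, the E-box ratio was 1.13. ETS was 0.989 in the 36-cycle list and SP/KLF 0.857 standardised to GC content. The flank ratio was 4.91 in the 36-cycle list. With every gene within 50 kb the myogenic list was at 14.6%. Among peaks in both lists the Tead and Hippo list was at 8.70% and the blood cell list at 0. The share inside genes, 51.2%, was 58.2% with all annotated genes and 49.1% in the 36-cycle list. The causes were not tested. Depth is unknown, so a peak missing from a list cannot be read as absent binding.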

Other observations

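Of the 19 sequences 1 base away from TGACTCA that were counted in the other distal peaks, 12 had a ratio to distal windows with an interval above 1, 5 an interval that includes 1 and 2 an interval below 1. TGACGCA (T5G, counted from 1 at the 5′ end of TGACTCA) was in 0.836% of these peaks against 0.312% of windows, a ratio of 2.68 (2.20 to 3.26). TGAATCA (C4A) was in 6.78% of the other distal peaks against 2.68% of windows, a ratio of 2.53 (2.37 to 2.71), and the AP-1 peaks had a ratio of 2.54 (2.21 to 2.91). TGACTAA (C6A) was in 5.42% against 2.42%, a ratio of 2.24 (2.08 to 2.41) beside 2.24 (1.91 to 2.62) in the AP-1 peaks, and TTACTCA (G2T) in 4.24% against 2.36%, a ratio of 1.80 (1.65 to 1.96). At the other end, TAACTCA (G2A) was in 2.28% against 2.96%, a ratio of 0.769 (0.683 to 0.865), and TGTCTCA (A3T) had 0.919 (0.849 to 0.995). At least 1 of the 19 was in 51.4% of the other distal peaks, 52.4% of the AP-1 peaks and 43.9% of windows. Peaks had a higher GC content than windows, and its part in these ratios was not tested.

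The most frequent arrangement of AP-1 with RUNX in the AP-1 peaks was TGTGGT on the opposite strand with 3 bases between, before TGACTCA, with 15 pairs beside a mean of 2.59 per arrangement. Of all 1980 distal sites with this arrangement, 0.758% (0.460 to 1.25) were in peaks, which is not above the 1.33% of all distal sites, and 14 of the 15 sites lay in repeat-masked bases. For MEIS, the sequence TGACAG on the opposite strand 2 bases after the site was the most frequent arrangement, and 14 of 432 such sites (3.24%, 1.94 to 5.37) were in peaks, 11 of them in masked bases. These arrangements were picked after their counts were seen.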
